A study of Mus musculus with 6 samples.

Results

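The genes described here encode chaperones, folding enzymes and quality control proteins of the endoplasmic reticulum (ER), together with sensors and a transcription factor of the unfolded protein response. They were 34 genes given by name, and each was read from a probe set that the platform annotation assigned to that gene alone, taking the probe set with the highest mean signal over the 6 arrays. All 34 had such a probe set, of 18193 genes with one. Of these, 33 passed the filter on dim probe sets, and in all 33 every array read over 16 intensity units. Derl3, a paralog of the ER channel proteins Derl1 and Derl2, lay at the floor of the arrays, with 4.14 ± 0.011 in controls and 4.14 ± 0.011 in knockouts (mean ± SD, n = 3 each), and was not tested.

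Cultured mouse lung endothelial cells, the lining cells of blood vessels, were kept at 0.5% oxygen for 16 h before RNA was taken. There were 3 arrays of control cells and 3 arrays of cells labelled Hif-2a knockout. HIF-2α, encoded by Epas1, is an oxygen-regulated transcription factor, and the knockout cells came from mice in which VE-Cadherin-Cre, a recombinase driven by an endothelial promoter, acted on floxed alleles. The control genotype is described as VE-Cadherin-Cre with HIF-2a floxed/WT alleles, as floxed/floxed, and as wild type in different labels, so whether the controls carried Cre and how many floxed alleles is not settled. The labels give neither the age of the mice nor whether replicates are separate cultures or separate animals, so p-values describe the spread among arrays, which may be technical. Both groups were at low oxygen, so the comparison concerns the knockout and not the response to low oxygen.

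Proteins that enter the secretory pathway fold in the ER with the help of chaperones and enzymes that form disulfide bonds. When unfolded proteins accumulate, the membrane sensors IRE1α (Ern1), ATF6 and PERK respond: IRE1α splices Xbp1 mRNA, ATF6 is cut to release a transcription factor, and PERK slows translation. Their targets include the chaperones themselves and the machinery of ER-associated degradation, which returns misfolded proteins to the cytosol. A probe set reads the amount of transcript, so Xbp1 splicing, ATF6 cleavage and protein levels were not measured.

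Single arrays shape these results. Controls 1 and 3 were nearly alike, with an SD over genes of 0.14 for their log2 difference, where other pairs of the same group gave 0.31 to 0.68. The Epas1 probe set gave 9549 ± 90.9 in controls and 9392 ± 469 in knockouts (limma adjusted p = 0.753), and since the deleted exons are not named, it does not check the genotype. Of 12 endothelial markers, 11 read over 16 in every array. Their summed intensity was 147774 to 157288 in controls and 116043 to 127980 in knockouts. Of the 12, 5 fell and 0 rose, beside 5.07% and 8.63% of all genes. The 5 that fell were Flt1, Tek, Erg, Tie1 and Pecam1, with log2 differences of -1.67, -1.24, -0.67, -0.65 and -0.34. The brightest, Egfl7 and Emcn, had log2 differences of -0.09 and -0.08 and did not pass (limma adjusted p = 0.464 and 0.633). All 9 fibroblast and mural markers, led by Pdgfra and Pdgfrb, and all 7 epithelial markers, led by Sftpc and Cdh1, were at the floor. Of 6 leukocyte markers Cd68 alone had signal, which fell from 3925 ± 293 to 971 ± 192 (log2 difference -2.01, limma adjusted p = 0.00762), while Csf1r, Ptprc and the others were at the floor. Of 5 plasma cell markers, which mark a cell type rich in ER, Sdc1 had signal (6145 ± 555 and 7503 ± 881) while Jchain, Mzb1, Pou2af1 and Tnfrsf17 were at the floor. In bulk RNA, fewer cells of a type and less RNA per cell cannot be told apart, and the part of the endothelial markers in the results below was not tested.

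The ER genes passed the threshold at about the share of all genes, and 1 of them changed greatly. Of 33 tested, 3 were higher in the knockout arrays (Foxred2, Ern1 and Manf), 1 was lower (Sel1l) and 29 did not pass the threshold of limma adjusted p under 0.05. That is 12.1% of the members, beside 13.7% of all 12277 genes tested, of which 8.63% were higher and 5.07% lower. The median log2 difference of the members, knockout minus control on the log2(intensity + 16) scale, was 0.09, beside 0.0071 over all genes. In 20 of 33 members (60.6%) the difference was above 0, beside 62% of all genes. It was smaller than 0.5 in either direction in 28 of 33 members (84.8%), beside 72.1% of all genes, and 1 member, Foxred2, differed by more than 1. The number that passed depended on single arrays. Leaving out control 1, control 3 or knockout 1 left 1 called member, when 1.69%, 1.73% and 2.57% of all genes passed. Leaving out control 2 left 2 and leaving out knockout 2 left 3, when 7.38% and 7.93% of all genes passed. Leaving out knockout 3 gave 7, when 24.5% of all genes passed. With controls 1 and 3 averaged into 1 sample it was 1, when 1.58% did. The number of members thus moved with that of all genes, and Foxred2 was among them each time.

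**Figure D1:**
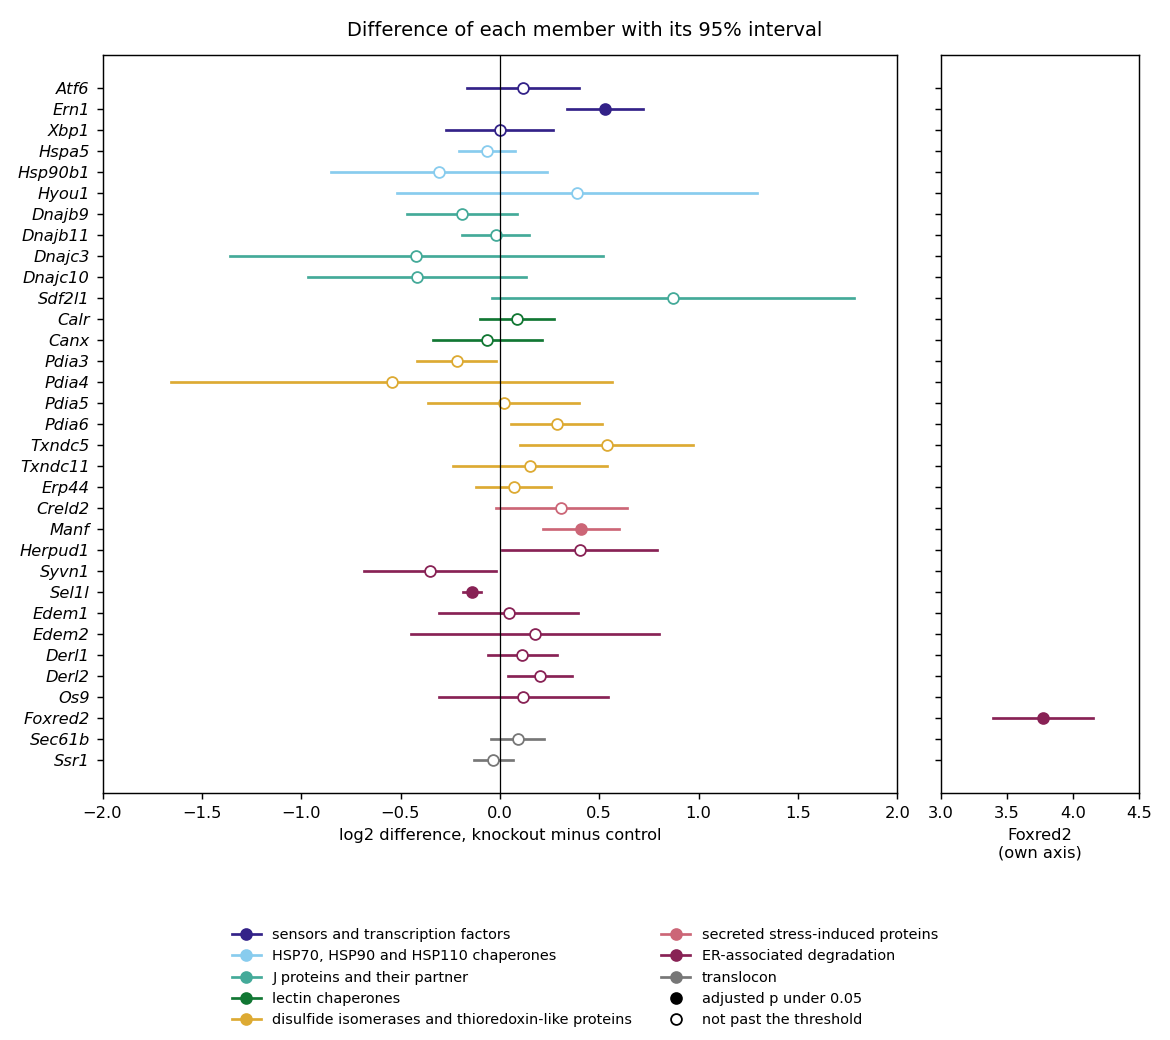
The log2 difference of each of 33 members (knockout minus control, points) is drawn with its 95% limma interval (lines), coloured by role, and filled points passed the threshold. Foxred2, at 3.77, has an axis of its own; the other differences lie between -0.54 and 0.87, and most intervals include 0.

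Foxred2 encodes an ER flavoprotein of ER-associated degradation. Its probe set, the only one for the gene, read 43.1, 43.9 and 34.9 intensity units in controls 1 to 3, and 765, 883 and 634 in knockouts 1 to 3. Every knockout array lay far above every control array, and the lowest knockout array was knockout 3. The mean rose from 40.6 ± 5.01 to 761 ± 124 (SD, n = 3 each), a ratio of 18.7. On the log2 scale the difference was 3.77 ± 0.14 (SE, limma adjusted p = 0.00141), which understates the ratio because 16 was added to a dim control signal. The call held with each array left out in turn, with adjusted p between 0.00328 and 0.0177.

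The 250 bases before the annotated start of Foxred2 are shown because Foxred2 is the member with the large difference and because motifs of the kind HIF proteins bind lie there. The sequence is from RefSeq on GRCm38.p6, chr15:77956723-77956972, minus strand, 5′ to 3′, and capitals mark matches to the HIF core motif on either strand, with overlapping matches joined:
Foxred2: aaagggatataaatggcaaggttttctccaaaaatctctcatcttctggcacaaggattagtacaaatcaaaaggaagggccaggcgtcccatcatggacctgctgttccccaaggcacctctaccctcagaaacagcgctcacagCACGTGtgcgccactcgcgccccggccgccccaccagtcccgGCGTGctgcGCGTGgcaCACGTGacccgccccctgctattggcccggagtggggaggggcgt

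The core was searched as ACGTG and as GCGTG on both strands. The window holds 4 joined sites, whose ends lie 98, 57, 48 and 39 bases before the start. The outer pair reads CACGTG, a palindrome that matches the core on both strands and is also the E-box letters that other basic helix-loop-helix factors bind. At least 4 such sites were found in 1.73% of 27025 genes with a promoter in the table and in 2 of 30 members, the other being Txndc11 (log2 difference 0.15 ± 0.15, limma adjusted p = 0.546). A match describes letters and not binding.

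The sensors and their factor did not move as a set. Ern1, the gene of IRE1α, read 1849, 1872 and 1796 in controls and 2754, 2848 and 2397 in knockouts, and the groups did not overlap. It rose 1.45-fold, from 1839 ± 39.1 to 2666 ± 238, with a log2 difference of 0.53 ± 0.07 (limma adjusted p = 0.0197). The call ended without control 1 (0.0936), control 2 (0.0568), control 3 (0.0959) or knockout 1 (0.0841). Xbp1, whose mRNA IRE1α splices, read 6563, 7171 and 6630 in controls and 7030, 7496 and 5903 in knockouts. Those arrays overlapped fully, and the log2 difference was -0.0015 with a 95% interval of -0.27 to 0.27 (limma adjusted p = 0.992). Atf6, the gene of the cleaved sensor, had a log2 difference of 0.12 ± 0.11 in its brightest probe set, which did not pass (adjusted p = 0.513). Its 2 other probe sets pointed down, by -0.63 and -0.32 (limma adjusted p = 0.0985 and 0.0898 over probe sets). The direction of Atf6 thus depends on the probe set, and with the mean of its 3 probe sets it was -0.28 (limma adjusted p = 0.0446).

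The large chaperones did not pass. Hspa5, the gene of BiP, the HSP70 chaperone that also holds the sensors inactive, read 27097, 27738 and 27343 in controls and 27642, 24297 and 26660 in knockouts. Its log2 difference was -0.07 ± 0.05, with a 95% interval of -0.21 to 0.07 (limma adjusted p = 0.457). Hsp90b1, the gene of the HSP90 chaperone GRP94, read 20435, 15323 and 20161 in controls and 15356, 11898 and 18233 in knockouts. Control 2 was as low as knockout 1, knockout 3 was close to the other controls, and the difference was -0.31 ± 0.21. Hyou1, the HSP110-type nucleotide exchange factor of BiP, read 2450, 3449 and 2344 in controls and 5102, 3783 and 2315 in knockouts, where knockout 3 was the lowest of all 6 arrays. Its difference of 0.39 ± 0.35 has an interval from -0.52 to 1.30, and it did not pass (limma adjusted p = 0.5).

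The 4 J proteins, which bring substrates to BiP and stimulate its ATPase, had differences below 0 without passing, where 62% of all genes were above 0. Dnajb9 (ERdj4), Dnajb11 (ERdj3), Dnajc3 (p58IPK) and Dnajc10 (ERdj5, also a disulfide reductase) had log2 differences of -0.19, -0.02, -0.42 and -0.42; with the spike-in level of the arrays as a covariate, Dnajb9, Dnajc3 and Dnajc10 turned to 0.064, 0.48 and 0.051. Dnajc3 read 5014, 3362 and 4976 in controls and 3032, 2268 and 5067 in knockouts, so control 2 stood with the knockouts and knockout 3 with the controls. Sdf2l1, which forms a complex with ERdj proteins, went the other way: 920, 1352 and 863 in controls and 2574, 2139 and 1226 in knockouts. Its difference of 0.87 ± 0.35 was the second largest of the members and did not pass (limma adjusted p = 0.167); knockout 3 lay below control 2. Without knockout 3 it passed (limma adjusted p = 0.0464), and with the spike-in covariate it was 0.12 and did not pass.

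Lectin chaperones and disulfide enzymes held no call among 9 genes, beside 13.7% of all genes. At an unadjusted p under 0.05 (limma) there were 3 of the 9, beside 32.4% of all genes. The lectins Calr and Canx, which bind sugars on folding glycoproteins, differed by 0.09 ± 0.07 and -0.06 ± 0.10. Among the disulfide isomerases, Pdia3, the partner of both lectins, read 18808, 18930 and 18957 in controls and 17696, 14639 and 16593 in knockouts, without overlap, and its difference of -0.22 ± 0.08 did not pass (limma adjusted p = 0.131). Its other probe set pointed up by 0.22. Pdia6 read 10053, 11061 and 10162 in controls and 13473, 13446 and 11319 in knockouts, also without overlap and in the other direction, at 0.29 ± 0.09 (limma adjusted p = 0.102). Txndc5 differed by 0.54 ± 0.17 with groups that did not overlap (limma adjusted p = 0.103). Pdia4 was the least settled, with 7540, 10528 and 8515 in controls and 10560, 5508 and 3730 in knockouts, where knockout 1 was the highest and knockout 3 the lowest of all arrays. The others, Pdia5, Txndc11 and Erp44, a protein that retains folding intermediates in the early secretory pathway, had differences from 0.02 to 0.15.

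Of the secreted, stress-induced proteins, Manf rose and Creld2 did not pass. Manf, a small secreted factor that binds BiP, read 13394, 14816 and 12760 in controls and 18436, 18922 and 17064 in knockouts, and the groups did not overlap. It rose from 13657 ± 1053 to 18141 ± 964, a log2 difference of 0.41 ± 0.07 (limma adjusted p = 0.0328). The call ended without control 1 (0.135), control 3 (0.113), knockout 1 (0.124) or knockout 2 (0.0856). Creld2, whose protein carries an EGF-like domain and is released on ER stress, read 7080, 8545 and 6796 in controls and 9554, 10061 and 8160 in knockouts. Knockout 3 lay below control 2, and the difference of 0.31 ± 0.13 did not pass (limma adjusted p = 0.174) and was -0.0047 with the spike-in covariate.

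**Figure D2:**
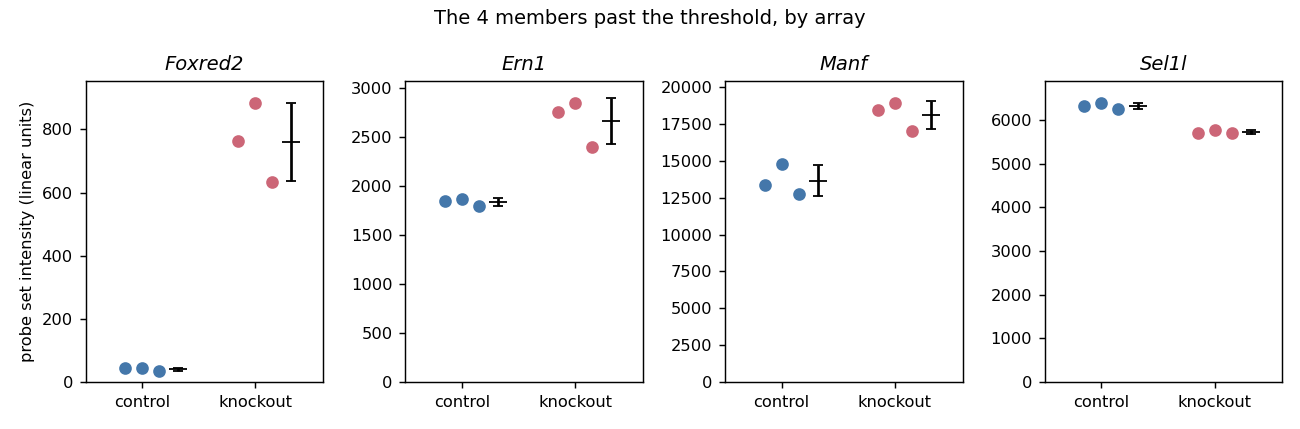
Probe set intensity on a linear axis from 0 is drawn for the 4 members that passed, with a point for each array (replicates 1 to 3 from left to right) and the mean ± SD of each group beside them. Foxred2 goes from about the axis floor (34.9 to 43.9) to 634 to 883, whereas Sel1l differs by under 10 percent of its level, with a ratio of 0.91.

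In ER-associated degradation, 2 of 9 tested genes passed, beside 13.7% of all genes. They went in opposite directions, and Foxred2 was the higher. Sel1l, the scaffold of the membrane ubiquitin ligase HRD1, read 6325, 6385 and 6247 in controls and 5699, 5784 and 5697 in knockouts. The shift was small and even, from 6319 ± 69.3 to 5727 ± 49.9, so that Sel1l fell by 0.14 ± 0.02 on the log2 scale (limma adjusted p = 0.0162). The call ended without control 1 (0.0919), control 2 (0.0517), control 3 (0.0694) or knockout 1 (0.0813). Of its 4 further probe sets, 2 pointed down and 2, both dim, pointed up, and with the mean of its probe sets the difference was -0.093 and did not pass (limma adjusted p = 0.609). Syvn1, the gene of the ligase HRD1 itself, read 2128, 2356 and 2393 in controls and 1808, 2077 and 1532 in knockouts, without overlap. Its difference of -0.35 ± 0.13 did not pass (limma adjusted p = 0.14). Herpud1, an HRD1 partner, read 2695, 3285 and 2998 in controls and 4487, 4180 and 3271 in knockouts, and knockout 3 lay just below control 2 (0.40 ± 0.15, limma adjusted p = 0.146). Derl1 and Derl2, channel proteins for retrotranslocation, did not overlap between the groups and had differences of 0.11 ± 0.07 and 0.20 ± 0.06 (limma adjusted p = 0.31 and 0.101). A dimmer probe set of Derl2 pointed down, at -0.31. Edem1, Edem2 and Os9, which handle the mannose signal of misfolded glycoproteins, differed by 0.04, 0.18 and 0.12. The other probe set of Edem1 pointed down, at -0.25. At the translocon, where new proteins enter the ER, Sec61b and Ssr1 differed by 0.09 ± 0.05 and -0.03 ± 0.04.

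Control and knockout arrays did not overlap in 10 of 33 members (30.3%), with the knockout arrays above in 7 and below in 3. Over all genes tested this was so in 36.2%, with 23.4% above and 12.8% below. At an unadjusted p under 0.05 there were also 10 members (30.3%), beside 32.4% of all genes. The place of 2 arrays recurs across the members. Knockout 3 was the knockout array nearest to the control mean in 21 of 33 members (63.6%), beside 64.3% of all genes, and control 2 was the control array nearest to the knockout mean in 22 of 33 (66.7%), beside 52.1%. With control 2 and knockout 3 both left out, 13 members passed, 11 higher and 2 lower, when 37.8% of all genes did. The spike-in controls tended to read higher in knockout arrays, at 1299, 1522 and 1338 intensity units in controls 1 to 3 and 1655, 1782 and 1494 in knockouts 1 to 3. The groups overlapped in this level, since control 2 lay above knockout 3. With this level as a covariate, Foxred2 rose and Sel1l fell, Ern1 and Manf did not pass, and the median of the members was -0.0047.

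**Figure D3:**
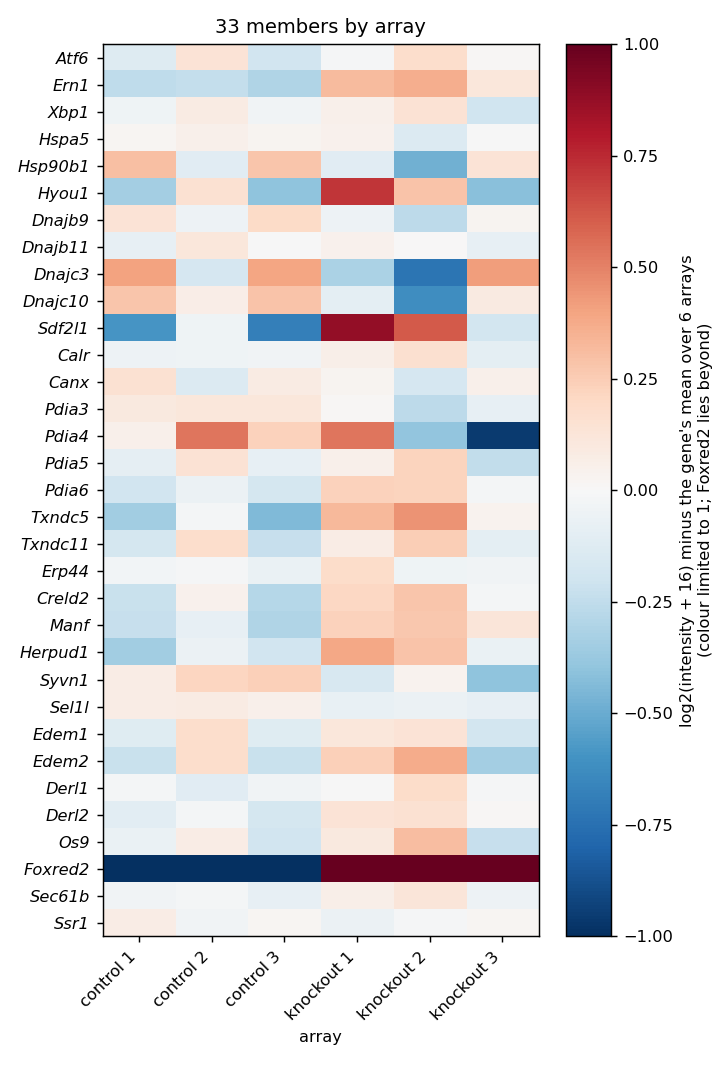
Each cell is the log2(intensity + 16) of a member (rows) on an array (columns), minus that gene's mean over the 6 arrays, with red above and blue below the mean. Foxred2 separates the groups beyond the colour scale, and in genes such as Hyou1 and Dnajc3 knockout 3 has the colour of controls 1 and 3.

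Further probe sets of the same genes gave a check on the chosen ones. The 34 genes had 80 probe sets, and of the 46 not chosen, 40 passed the filter. None of the 40 passed the threshold when all probe sets were tested together, beside 7.65% of all probe sets (limma). At an unadjusted p under 0.05 there were 4 of the 40, and that share over all probe sets was not counted. In 30 of the 40 the difference had the sign of the chosen probe set and in 10 the opposite one. The 4 further probe sets of Ern1 were dim; the highest of them read 6 to 10 in controls and 16 to 36 in knockouts (log2 difference 0.72, limma adjusted p = 0.134). Foxred2 and Manf had 1 probe set each.

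The members were given by name as ER chaperone and unfolded protein response genes. Of the 30 with a promoter entry, 9 hold the ER stress element there. This element, bound by ATF6 together with the CCAAT factor NF-Y, was searched as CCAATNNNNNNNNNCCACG, its variant, ER stress element II, as ATTGGNCCACG, and the core of the UPR element bound by XBP1 as TGACGTGG, all on both strands of the 250 bases before the start. Of the 34 members, 30 had an entry in the RefSeq promoter table; Atf6, Derl1, Hyou1 and Manf had none. The ER stress element was found in 35 of all 27025 genes (0.13%). Since the members were listed as genes of the unfolded protein response, their share describes the list and was not tested. The variant was found in Herpud1, beside 0.037% of all genes, and the UPR element core in Txndc5 and Txndc11, beside 0.603%. The matches to the ER stress element are shown because they let the shared letters be compared between genes, with the fixed ends in capitals and the 9 free bases in lower case, each read 5′ to 3′ on the strand that matched (GRCm38.p6):
Hspa5, chr2:34772025-34772043: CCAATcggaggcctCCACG
Hsp90b1, chr10:86705638-86705656: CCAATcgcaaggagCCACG
Hsp90b1, chr10:86705533-86705551: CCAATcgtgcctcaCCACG
Dnajc3, chr14:118937827-118937845: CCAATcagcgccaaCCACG
Calr, chr8:84847075-84847093: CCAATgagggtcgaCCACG
Canx, chr11:50325800-50325818: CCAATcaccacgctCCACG
Pdia6, chr12:17266491-17266509: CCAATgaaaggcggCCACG
Creld2, chr15:88819520-88819538: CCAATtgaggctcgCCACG
Syvn1, chr19:6046532-6046550: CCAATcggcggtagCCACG
Derl3, chr10:75893242-75893260: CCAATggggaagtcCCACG

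The whole window of Hspa5, from chr2:34771840-34772089 on the plus strand, is shown as the best known promoter of this kind, with its exact match in capitals:
Hspa5: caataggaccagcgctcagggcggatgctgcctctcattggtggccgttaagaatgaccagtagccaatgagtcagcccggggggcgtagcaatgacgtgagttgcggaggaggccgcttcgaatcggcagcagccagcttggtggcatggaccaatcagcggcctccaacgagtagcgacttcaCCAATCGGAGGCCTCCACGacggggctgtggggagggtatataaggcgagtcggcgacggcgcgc

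The match of Hspa5 ends 46 bases before the start, and the 10 matches end between 25 and 193 bases before it. The last letters of the element, read on the other strand, share 4 letters with the HIF core, and 4 of the 10 matches overlapped a HIF core site; every UPR element core contains ACGTG. At least 1 HIF core match was found in 24 of 30 members, beside 41.5% of all genes, and the windows of the members had a higher GC content (median 62.0%, beside 52.4% over all windows).

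Of the 8 tested members with an ER stress element, 0 passed, beside 13.7% of all genes. At an unadjusted p under 0.05 (limma) there were 2, Pdia6 and Syvn1, in opposite directions, beside 32.4% of all genes. Of the 8, 3 had a difference above 0 and 5 below, where 62% of all genes were above 0. The median was -0.06, with a range from -0.42 to 0.31. These signs were not stable. With the spike-in covariate Hsp90b1, Dnajc3 and Canx turned to 0.22, 0.48 and 0.19, and Calr and Creld2 to -0.045 and -0.0047, while the others kept their sign. The number that passed was 1 without knockout 3, 3 without both control 2 and knockout 3, and 6 with array weights, when 24.5%, 37.8% and 54% of all genes passed. It was 0 under the other 18 alternatives. Of the 21 tested members with a promoter entry and no such element, Foxred2 and Ern1 rose and Sel1l fell, with a median of 0.07. The difference between these sets of members was not tested.

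**Figure D4:**
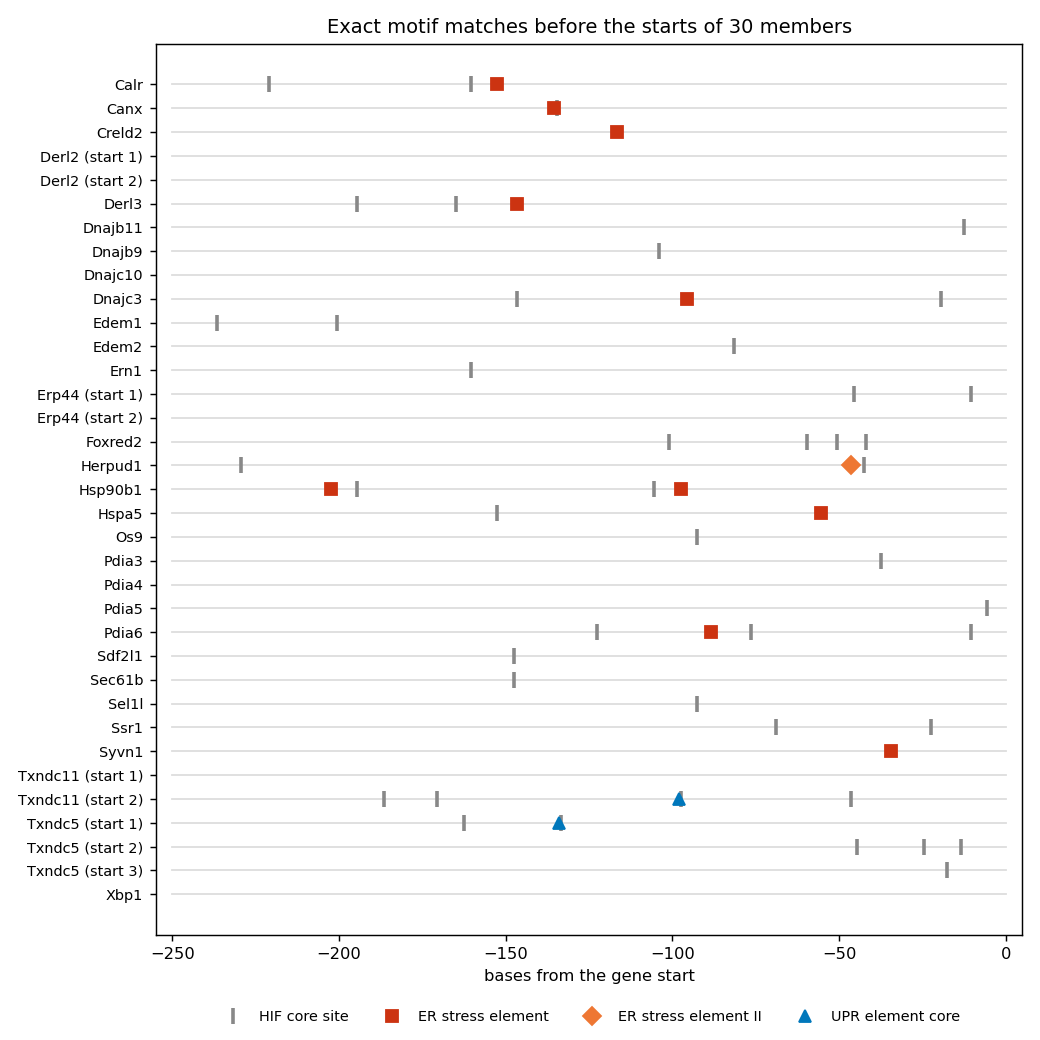
Exact matches are placed by their distance in bases from the gene start, for every promoter window of the 30 members with an entry (genes with several starts have several rows). Red squares are ER stress elements, found in 9 genes, and grey bars are joined HIF core sites, of which Foxred2 and start 2 of Txndc11 have 4 each. Foxred2 is among the 21 members with an entry and no ER stress element.

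Other genes of the same pathway passed at about the share of all genes. Of 123 genes in 7 lists, 117 had a probe set and 114 were tested, of which 8 rose and 5 fell (11.4%, beside 13.7% of all genes), with a median log2 difference of 0.05. Without a single array, 1 to 18 of these genes were higher and 0 to 6 lower, the high values without knockout 3. In the PERK branch, 2 of 8 rose and 1 fell. Eif2ak3, the gene of PERK, fell, with 2657, 3199 and 2806 in controls and 2288, 1986 and 1949 in knockouts (log2 difference -0.47 ± 0.10, limma adjusted p = 0.0473). Atf4, the factor translated when PERK is active, rose by 0.17 ± 0.04 and Chac1, a glutathione-degrading target of that branch, rose by 1.05 ± 0.20 (limma adjusted p = 0.0457 and 0.0389). The call of Eif2ak3 ended without each of the 6 arrays in turn (adjusted p 0.0693 to 0.15), and those of Atf4 and Chac1 ended without each array but knockout 3.

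Among 29 other folding proteins, 2 rose and 3 fell, beside 8.63% and 5.07% of all genes. Tmx2, a thioredoxin-like membrane protein, rose by 0.31 ± 0.02 (limma adjusted p = 0.00551) and the prolyl isomerase Fkbp11 by 1.02 ± 0.16, from 2448, 2875 and 2357 to 5689, 5861 and 4232. Its relative Fkbp14 fell by 0.89 ± 0.08 (limma adjusted p = 0.00964). Ero1a, the oxidase that recharges the disulfide isomerases and a gene known to respond to low oxygen, fell by 0.15 ± 0.03 (limma adjusted p = 0.0327). In the other lists, Erlec1, a lectin of ER-associated degradation, fell by 0.57 ± 0.05 and Herpud2 rose by 0.28 ± 0.04. Both signal recognition particle receptor subunits, Srpr and Srprb, rose, by 0.29 ± 0.06 and 0.69 ± 0.14. The calls of Fkbp11, Ero1a, Srpr and Srprb ended without each array but knockout 3, that of Herpud2 without each control or knockout 1, that of Fkbp14 without control 1 or control 3, and those of Erlec1 and Stt3b without control 3. Stt3b, a catalytic subunit of the oligosaccharyltransferase, rose by 0.30 ± 0.02 (limma adjusted p = 0.00695). Among 6 tested membrane-bound factors and proteases and 22 ER to Golgi transport genes, 0 passed, beside 13.7% of all genes. At an unadjusted p under 0.05 (limma) there were 0 and 4, beside 32.4% of all genes.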

How the data were processed

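Biotin-labelled, amplified total RNA was read on 1-colour Affymetrix arrays, 1 per sample, per the labels' protocols. The authors deposited a table of linear intensity values, 1 for each probe set on each array. MAS5 and GCRMA are named in the submitters' processing notes, with neither version nor role. Quantiles were nearly equal between arrays, so the values were used as they stood. Dim probe sets lie at a floor, where differences shrink. Of 45101 probe sets, 64 were array controls, 34958 named 1 gene and 932 several.

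Values were taken as log2(intensity + 16). Probe sets in the lowest 40% by mean were left out, the brightest probe set stood for each of 12277 genes, and the groups were compared with limma 3.58.1 in R 4.3.3 (two-sided, Benjamini-Hochberg over all genes, threshold 0.05). The number of arrays limits the precision. Members, lists and alternatives were chosen with earlier results of these data known. Named genes were all members, up to 4 genes per other list with the smallest p, Epas1 and the brightest markers. Flt1, Tek, Erg, Tie1, Pecam1, Csf1r, Ptprc, Jchain, Mzb1, Pou2af1 and Tnfrsf17 were added after their values were seen. Replicate numbers were not taken as pairs of arrays. Promoters are from RefSeq (GRCm38.p6), used only for sequence. Figures were drawn with matplotlib 3.10.9.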

Additional observations from a re-analysis of the deposited data

How the results depend on the processing

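Foxred2 kept its direction and its call under all 21 alternatives (log2 difference 2.97 to 4.19, highest adjusted p 0.0177), which were other scalings, pseudocounts, filters, variance models, probe set rules, covariates and arrays left out. The other 3 called members kept their direction, and 24 of their calls were lost over these alternatives. Of the calls of the 12 other named ER genes, 91 were lost, led by Eif2ak3 (17 of 21), Atf4 (13), Srpr (12), Ero1a (11) and Srprb (10). Over all genes, 883 passed with no filter, 6626 with array weights (gene-by-gene estimates, since the other estimate did not converge), 2995 with the replicate block, 194 with controls 1 and 3 averaged, 4644 without control 2 and knockout 3, and 207 to 3008 with 1 array left out, against 1683. Members called higher numbered 14 with array weights, 5 with the replicate block, 1 with the spike-in covariate, 1 with controls 1 and 3 averaged, 11 without control 2 and knockout 3, and 1 to 6 with 1 array left out. Members called lower numbered 0 with the 75th percentile scaling, the stricter filter, the trend, the trend and robust setting, and controls 1 and 3 averaged, 6 with array weights, 2 with the replicate block, 2 without control 2 and knockout 3, and 0 to 1 with 1 array left out. Their median was -0.0047 with the spike-in covariate. Other ER genes called higher and lower numbered 4 and 3 with no filter, 39 and 31 with array weights, 4 and 3 over probe sets, 15 and 8 with the replicate block, 3 and 9 with the spike-in covariate, 2 and 1 with controls 1 and 3 averaged, 33 and 15 without control 2 and knockout 3, and 1 to 18 and 0 to 6 with 1 array left out; 5 were higher with the stricter filter and 2 lower with the mean of probe sets. Beside these counts, the share of all genes that passed was 4.85% with no filter, 54% with array weights and 24.4% with the replicate block. It was 10.8% with the spike-in covariate, 12.3% with the 75th percentile scaling and 19.9% with the stricter filter. With the trend it was 13.8%, with the trend and robust setting 11.5%, and with the mean of probe sets 12.4%. Over probe sets, 7.65% passed. The causes were not tested.

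No called member changed sign, and 44 values of uncalled ones did. With the spike-in covariate the log2 differences were -0.11 for Atf6, 0.22 for Hsp90b1, -0.29 for Hyou1, 0.064 for Dnajb9, 0.48 for Dnajc3, 0.051 for Dnajc10, -0.045 for Calr, 0.19 for Canx, -0.35 for Pdia5, -0.22 for Txndc11, -0.0047 for Creld2, -0.29 for Edem1, -0.41 for Edem2, -0.26 for Os9, -0.012 for Sec61b and 0.033 for Ssr1. With the mean of probe sets they were -0.28 for Atf6, 0.0030 for Pdia3, -0.10 for Edem1 and -0.052 for Derl2. With array weights they were 0.076 for Xbp1, 0.0015 for Hspa5, 0.077 for Dnajb11 and 0.21 for Pdia4. With the 75th percentile scaling Xbp1 was at 0.011. Without control 2 and knockout 3, Xbp1 was at 0.14 and Dnajb11 at 0.067. With controls 1 and 3 averaged, Pdia5 was at -0.019 and Edem1 at -0.0064. With 1 array left out, Xbp1 ran from -0.074 to 0.098, Dnajb11 from -0.066 to 0.033, Canx from -0.15 to 0.0078, Pdia5 from -0.088 to 0.15, Erp44 from -0.0051 to 0.11, Edem1 from -0.013 to 0.15 and Os9 from -0.0056 to 0.26.

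The replicate numbers share no stated source. Deviations of arrays with the same number correlated at -0.47, 0.84 and 0.80 for numbers 1, 2 and 3, and control 1 correlated best with knockout 3 (0.76). The deviations of 3 arrays from their group mean are not independent, so these correlations cannot decide whether the arrays were paired. The numbers were not taken as pairs.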

Other observations

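Dim further probe sets of 2 members split the knockout arrays; they were chosen after their values were seen. A probe set of Ssr1, a subunit of the translocon-associated complex, read 154, 90.9 and 183 in controls 1 to 3 and 19.3, 14.3 and 160 in knockouts 1 to 3, while the chosen Ssr1 probe set differed by -0.03 on the log2 scale. A probe set of Hyou1 read 8.40, 13.2 and 8.39 in controls and 60.8, 23.0 and 9.55 in knockouts. In both, knockout 3 lay with the controls.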
